A study of Mus musculus with 10 samples.

Results

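*Trpm1*, *Pglyrp1*, *Ckb*, *Fst* and *Pla1a* were the 5 genes with the largest falls from mouse embryonic stem cells (ESC) kept in 2i medium to the same cells kept in serum plus LIF (S+L). They are 5 of 27998 genes counted in the E14Tg2a cells and were ranked over the 8075 genes with at least 100 UMIs (unique molecular identifiers, the counted transcripts) in the 2i and S+L libraries together, by a log2 ratio of their levels. The falls themselves chose the genes and are given here as a description only. What was followed is when each gene was lost once the 2i inhibitors were withdrawn, whether it came back in embryoid bodies (EB), and in which cells.

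The study profiled single cells by droplet-based sequencing of 3' ends while ESC were turned into epiblast-like cells (EpiLC), epiblast stem cells (EpiSC) and EB that contain primordial germ cell-like cells (PGCLC). Transcripts were counted as UMIs, in 8 libraries of the line E14Tg2a and in 2 libraries of the line R1, with 1 library per group. A level is the sum of a gene's UMIs over all cells of a group, expressed per 1000000 UMIs (CPM). Levels carry exact 95% Poisson intervals and their ratios exact conditional ones, which cover counting error only. Because every stage was sequenced once, a difference between stages cannot be told apart from a difference between libraries, and groups were not tested against each other.

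The E14Tg2a cells were wild type. The 2i ESC grew without serum in N2B27 medium with LIF, 0.4 µM of the MEK inhibitor PD0325901 and 3 µM of the GSK3β inhibitor CHIR99021. The S+L ESC grew with 15% FBS and LIF and without either inhibitor, which is also the medium from which cells were adapted to 2i. The EpiLC were collected on d1, d2 and d3 after 2i ESC were moved to fibronectin with 20 ng/ml Activin A, 12 ng/ml bFGF and KSR, and the EpiSC were passaged in the same factors without KSR. The EB grew in suspension from d2 EpiLC with BMP4, SCF, LIF and EGF and were collected whole on d2 and d4. The R1 libraries are d4 EB of wild-type cells (WT) and of a line with catalytic-dead *Mll3* and *Mll4* (dCD), made with a later version of the kit, so that levels were compared only within a line. Each stage is thus a culture of 1 line, the dCD library represents 1 mutant line, and EB are mixtures in which the germ cell-like cells are a minority.

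The 8 E14Tg2a libraries held between 227 and 537 cells, 8757170 to 14649279 UMIs in all and a median of 21658 to 36750 UMIs per cell. The R1 table held 32285 genes, with 1416 WT cells and 1699 dCD cells at a median of 13187.5 and 11751 UMIs. The labels were set against marker genes. All 8 naive markers had at least 20 UMIs over 2i and S+L ESC, and only *Tfcp2l1* was at least 2-fold lower in S+L ESC. Of 3 core pluripotency genes and 6 PGC genes 0 differed 2-fold, and of 5 formative or primed genes 2 were higher in S+L ESC. The median log2 ratio of the 8 naive markers to 2i ESC was -4.74 in d2 EpiLC and -5.31 in EpiSC. *Fgf5*, a marker of post-implantation epiblast, was at 0.228 CPM in 2i ESC, 46.3 in d1 EpiLC and 147 in EpiSC. Of markers of other cells, 0 of 7 primitive endoderm genes reached 20 UMIs over 2i and S+L ESC, and of the 5 extraembryonic ectoderm, 2 extraembryonic mesoderm, 2 endothelium and 1 primitive streak genes that did, only *Rhox6* was 2-fold higher in S+L ESC. Of the 5 fibroblast genes only *Thy1* had enough UMIs, at 1.03 CPM in 2i and 6.83 in S+L ESC. *Zscan4c*, *Zscan4d* and *Zscan4f*, markers of a 2-cell-like state, had 0 UMIs in 2i ESC and were at 5.84, 4.75 and 8.81 CPM in S+L ESC, and their part in the values below was not tested. A total of 8 barcodes occurred in more than 1 E14Tg2a library, and leaving out the 16 cells concerned moved no value of the 5 genes by more than its counting interval.

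The inhibitors act on different pathways. Blocking MEK silences the ERK arm of FGF signalling, which pushes ESC out of naive pluripotency, and blocking GSK3 stabilises β-catenin and relieves repression by TCF7L1. Serum supplies BMP-like activity, and LIF, present in both media, acts through STAT3. The genes followed here are not among the core pluripotency regulators. *Trpm1* encodes a cation channel known from melanocytes and retinal ON-bipolar cells. *Pglyrp1* encodes a secreted protein that binds bacterial peptidoglycan. *Ckb* encodes the cytosolic brain-type creatine kinase, which passes phosphate between ATP and creatine. *Fst* encodes follistatin, a secreted protein that binds activins and keeps them from their receptors. *Pla1a* encodes a secreted phospholipase that cuts phosphatidylserine at its first acyl chain.

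On GRCm38, *Trpm1* (ENSMUSG00000030523) lies at chr7:64153835-64269775 on the plus strand and *Pglyrp1* (ENSMUSG00000030413) at chr7:18871331-18890459 on the plus strand. *Ckb* (ENSMUSG00000001270) lies at chr12:111669361-111672338 on the minus strand, *Fst* (ENSMUSG00000021765) at chr13:114452290-114458951 on the minus strand and *Pla1a* (ENSMUSG00000002847) at chr16:38396117-38433145 on the minus strand. The miRNA gene *Mir211* lies inside *Trpm1* on the same strand, and an antisense gene, *Gm47040*, overlaps the start of *Fst*. These overlapping genes were not analysed here, and the counts are read without separating them.

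RefSeq promoters of GRCm38 were matched for 3 of the 5 genes, *Trpm1*, *Pglyrp1* and *Ckb*, which are also the 3 genes most reduced on d1. The 250 bases before each start site are shown 5' to 3' on the strand of the gene, with the letters of a motif in capitals. For *Pglyrp1* (chr7:18884440-18884689, plus strand) the window lies inside the gene span given above, not before it. Its capitals mark GGGTGTGG, read on the opposite strand. For *Ckb* (chr12:111672339-111672588, minus strand) the capitals mark TATAAA. *Trpm1* has 2 start sites, with upstream windows at chr7:64153585-64153834 and chr7:64185209-64185458 on the plus strand.
Pglyrp1: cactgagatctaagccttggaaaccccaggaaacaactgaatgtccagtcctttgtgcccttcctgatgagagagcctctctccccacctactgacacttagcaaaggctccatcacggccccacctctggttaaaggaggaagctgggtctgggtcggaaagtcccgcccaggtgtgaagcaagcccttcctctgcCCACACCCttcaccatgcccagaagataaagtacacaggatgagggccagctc
Ckb: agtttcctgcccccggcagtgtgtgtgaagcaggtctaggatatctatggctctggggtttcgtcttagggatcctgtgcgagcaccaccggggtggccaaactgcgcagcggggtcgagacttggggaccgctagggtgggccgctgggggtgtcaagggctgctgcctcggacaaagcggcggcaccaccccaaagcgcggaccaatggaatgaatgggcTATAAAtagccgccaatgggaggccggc
Trpm1 upstream start: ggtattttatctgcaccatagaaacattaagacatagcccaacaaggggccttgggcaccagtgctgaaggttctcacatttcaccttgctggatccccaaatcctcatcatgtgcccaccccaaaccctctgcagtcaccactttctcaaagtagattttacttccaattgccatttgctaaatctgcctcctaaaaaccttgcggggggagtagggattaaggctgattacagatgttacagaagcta
Trpm1 internal start: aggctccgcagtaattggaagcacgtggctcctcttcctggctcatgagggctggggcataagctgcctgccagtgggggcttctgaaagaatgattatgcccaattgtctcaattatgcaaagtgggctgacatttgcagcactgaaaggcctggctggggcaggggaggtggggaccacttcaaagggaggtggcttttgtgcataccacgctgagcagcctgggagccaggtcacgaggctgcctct

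Both strands of these windows were searched for AAGGTCA (ESRRB-type), CTTTGAT (TCF/LEF-type), TTCCNGGAA (STAT-type), GGGTGTGG (KLF-type), ATTTGCAT (POU-type) and TATAAA. The KLF-type letters start 53 bases before the *Pglyrp1* start site and occur in 3.20% of 32851 promoters of the same length. TATAAA starts 28 bases before the *Ckb* start site, on the strand of the gene, and occurs in 12.4% of promoters. The ESRRB-type, TCF/LEF-type, STAT-type and POU-type letters, held by 4.08%, 3.21%, 0.913% and 1.60% of promoters, are in none of the 4 windows, and the *Trpm1* windows hold none of the 6 motifs. The share of G and C was 55.6% for *Pglyrp1*, 62.8% for *Ckb*, and 46% and 57.2% for the *Trpm1* windows, beside a median of 52.4% over all promoters. Such matches are descriptions of letters, not of binding.

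The falls that chose the genes were measured on the log2 ratio of CPM, with 1 CPM added, over 8075 genes with at least 100 UMIs in 2i and S+L ESC together. The ratio was -4.08 for *Trpm1*, -3.06 for *Pglyrp1*, -2.997 for *Ckb*, -2.95 for *Fst* and -2.89 for *Pla1a*. The last gene inside was *Pla1a*, with 281 UMIs in 2i and 35 in S+L ESC, and the first outside was *Slc4a5*, at -2.73 with 153 and 18 UMIs. All 5 genes were thus at least 2-fold lower in S+L ESC, by the rule that chose them, beside 2.59% of all genes. *Fst* entered with 99 UMIs in 2i and 6 in S+L ESC, the fewest of the 5.

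*Trpm1* was almost absent 1 day after the inhibitors were withdrawn. Its level was 54.6 CPM (478 UMIs, 49.8 to 59.7) in 2i ESC and 2.28 in S+L ESC (23 UMIs). EpiLC were at 0.455 CPM on d1 (5 UMIs), 0 on d2 and 0.0710 on d3 (1 UMI), EpiSC at 0, and EB at 1.84 on d2 (27 UMIs) and 0 on d4. The channel gene was therefore high in 1 of the 8 libraries and at or near 0 in 5 of them, while d2 EB and S+L ESC kept a trace whose levels did not differ beyond counting error (ratio 1.24, 0.677 to 2.24). The level in 2i ESC was 120-fold that in d1 EpiLC (51.1 to 371), and this fall ranked 1 of 8110 genes compared between these libraries. The 2i library also entered the choice of the genes, so this rank is not independent of that choice. By the exact intervals, *Trpm1* was at least 164-fold lower in d2 EpiLC, at least 188-fold lower in EpiSC and at least 142-fold lower in d4 EB than in 2i ESC. It was 24.0-fold lower in S+L ESC (15.8 to 38.2). The level in d1 EpiLC was also below that in S+L ESC, with a ratio of 0.200 (0.0593 to 0.537).

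*Pglyrp1* followed nearly the same course. It was at 17.2 CPM (151 UMIs, 14.6 to 20.2) in 2i ESC and 1.19 in S+L ESC. Across EpiLC it was at 1.0002, 0.448 and 0.426 CPM on d1, d2 and d3, in EpiSC at 0.392, and in EB at 2.80 on d2 and 0.521 on d4. Outside 2i ESC the gene had 41 UMIs in d2 EB and between 5 and 12 in each of the other 6 libraries. Neighbours among those 6 in the order of levels did not differ beyond counting error, whereas d2 EB stood above S+L ESC by 2.36-fold (1.21 to 4.93). The level in 2i ESC was 17.2-fold that in d1 EpiLC (9.37 to 35.3), 44.0-fold that in EpiSC (18.4 to 137) and 14.5-fold that in S+L ESC (8.07 to 28.7).

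*Ckb* was also much lower by d1, but it was found in every library. The creatine kinase gene was at 646 CPM (5659 UMIs) in 2i ESC and 80.1 in S+L ESC. EpiLC held 68.5, 46.6 and 39.0 CPM on d1, d2 and d3, EpiSC 75.3, and EB 49.4 on d2 and 45.1 on d4. All 7 libraries outside 2i lay between 39.0 and 80.1 CPM, below 2i ESC by 8.07-fold (7.50 to 8.70) in S+L ESC and by 9.44-fold (8.75 to 10.2) in d1 EpiLC. Within this low range the level was lower again in d2 than in d1 EpiLC (ratio 0.681, 0.608 to 0.762) and in d3 than in d2 EpiLC (0.836, 0.740 to 0.945). It was 1.93-fold higher in EpiSC than in d3 EpiLC (1.74 to 2.15), and EpiSC and S+L ESC did not differ beyond counting error (0.940, 0.856 to 1.03).

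*Pla1a* was reduced on d1 by less than *Trpm1*, *Pglyrp1* and *Ckb*. It was lower again on d2, higher on d3 and lowest in EpiSC. It was at 32.1 CPM (281 UMIs, 28.4 to 36.1) in 2i ESC and 3.46 in S+L ESC. On d1, d2 and d3 EpiLC stood at 9.27, 4.57 and 7.31 CPM, EpiSC at 0.940, and EB at 3.07 on d2 and 4.69 on d4. The phospholipase gene was lowest in EpiSC, with 12 UMIs, and its EpiLC libraries lay at or above S+L ESC. In d1 EpiLC it was 3.46-fold below 2i ESC (2.75 to 4.38) but 2.68-fold above S+L ESC (1.81 to 4.05). In d2 EpiLC it was lower than in d1 (ratio 0.493, 0.345 to 0.696). It was 1.60-fold higher in d3 than in d2 EpiLC (1.13 to 2.28), and was 0.129 of the d3 EpiLC level in EpiSC (0.0643 to 0.234). EpiSC were 34.1-fold below 2i ESC (19.2 to 66.8).

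*Fst* was the exception, low in serum but not in EpiLC or EpiSC. It was at 11.3 CPM (99 UMIs, 9.19 to 13.8) in 2i ESC and 0.594 in S+L ESC. The EpiLC were at 13.1, 22.1 and 11.4 CPM on d1, d2 and d3, the EpiSC at 37.3, and the EB at 10.9 on d2 and 3.02 on d4. For follistatin, 2i ESC ranked 5 of the 8 libraries, EpiSC were highest, and S+L ESC and d4 EB were lowest. The d1 EpiLC did not differ from 2i ESC beyond counting error (ratio 1.16, 0.891 to 1.51). The level was 1.95-fold that of 2i ESC in d2 EpiLC (1.54 to 2.49), back to 1.01-fold in d3 EpiLC (0.777 to 1.30), and 3.30-fold in EpiSC (2.65 to 4.14). EpiSC were 62.8-fold above S+L ESC (28.6 to 172), with 476 UMIs against 6. The Activin A in the medium of EpiLC and EpiSC is the ligand that follistatin binds and was added to neither ESC medium. Its part in these levels was not tested.

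**Figure D1:**
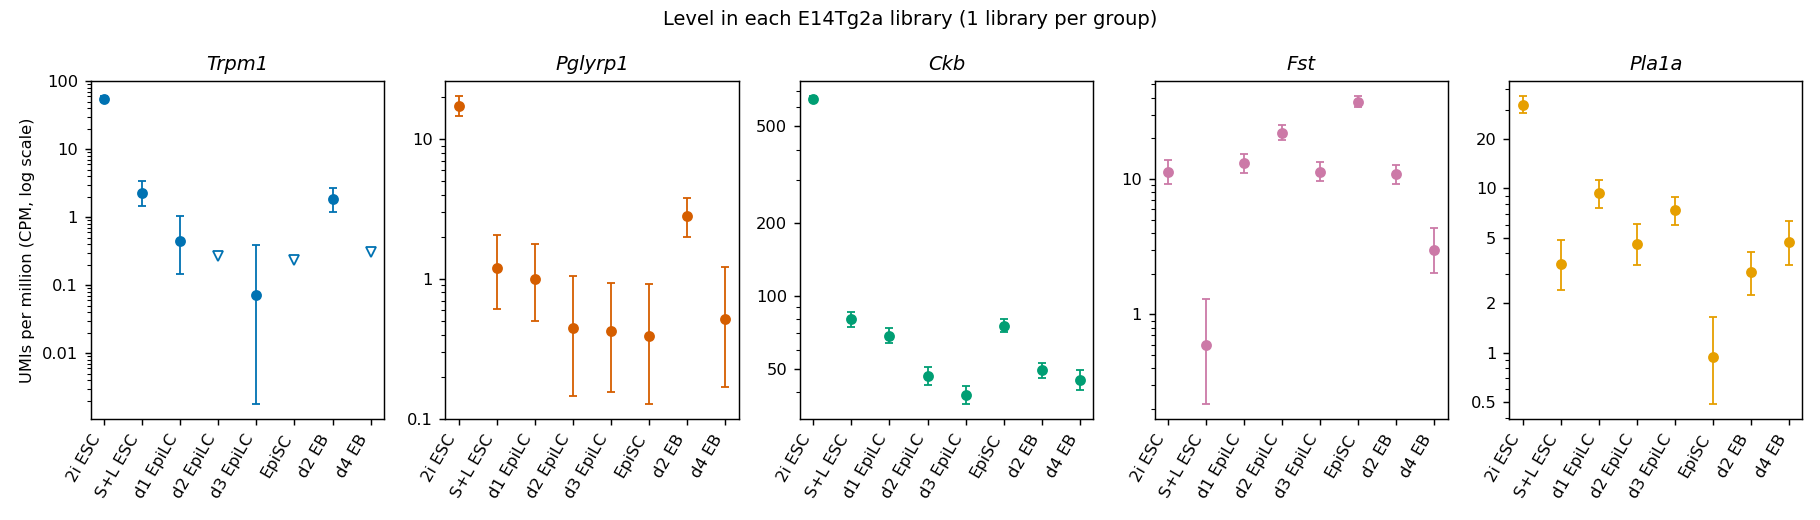
Level of each gene (CPM, log scale with a range of its own in each panel) in the 8 E14Tg2a libraries, with exact 95% Poisson intervals and open triangles at the limit of 3 UMIs where a library had 0. *Trpm1* and *Pglyrp1* are high in 2i ESC only, and *Ckb* stays between 39.0 and 80.1 CPM elsewhere. *Pla1a* is lowest in EpiSC at 0.940 CPM, and *Fst* is highest in EpiSC at 37.3 CPM.

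Counted by a 2-fold rule, 4 of the 5 genes were lower than in 2i ESC in d1 EpiLC, beside 5.96% of 8110 genes. The same 4, all but *Fst*, were lower in d2 EpiLC (5.86% of all genes), in d3 EpiLC (6.88%), in EpiSC (6.38%) and in d2 EB (7.26%), and all 5 were lower in d4 EB (7.38%). Of the 5, 1 was at least 2-fold higher in EpiSC, *Fst*, beside 20.1% of all genes, and 0 were at least 2-fold higher in d2 EpiLC, beside 12.2%. These comparisons share the 2i library that entered the choice of the genes. The counts of lower genes, and the ranks of falls given below, are thus not independent of it or of each other.

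The median log2 ratio over the 5 genes was -3.19, -3.66 and -3.68 in EpiLC on d1, d2 and d3, -3.71 in EpiSC, -3.02 and -3.58 in EB on d2 and d4, and -2.997 in S+L ESC. The median over all genes compared was between 0.18 and 0.39 in the libraries other than S+L ESC, where it was -0.01, so that a gene at an unchanged share of all transcripts lies slightly below the other genes there. With 1 CPM added, the log2 ratio in d1 EpiLC was -5.26 for *Trpm1*, -3.22 for *Ckb*, -3.19 for *Pglyrp1*, -1.69 for *Pla1a* and 0.20 for *Fst*, beside a 5th percentile of -1.12 over all genes. Among the 8110 genes ordered from the largest fall, *Ckb* ranked 30, *Pglyrp1* 32, *Pla1a* 185 and *Fst* 4147. On d1, then, 3 of the genes were already near their later levels, *Pla1a* lay in between and *Fst* was at its 2i level.

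**Figure D2:**
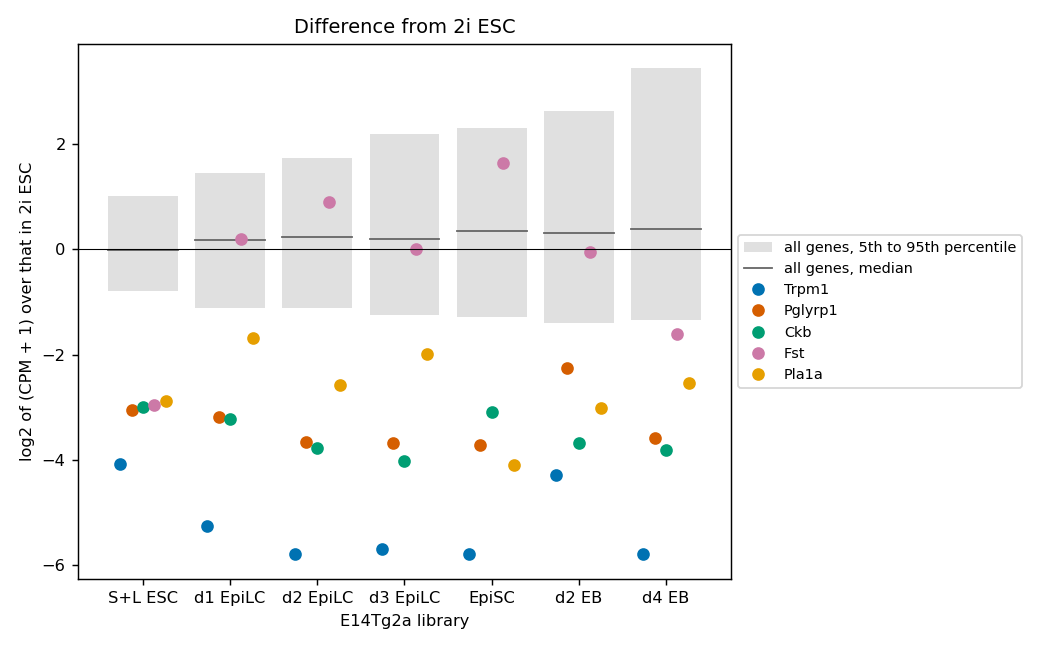
Log2 ratio of CPM (1 CPM added) to 2i ESC for each gene in the other 7 E14Tg2a libraries, with grey bars from the 5th to the 95th percentile of all genes compared and a line at their median. In d1 EpiLC *Trpm1* lies at -5.26 and *Fst* at 0.20, and in EpiSC *Fst* lies at 1.64 while the other 4 genes lie below -3.

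The naive transcription factors did not share 1 time course. On d1 the log2 ratio to 2i ESC was -4.80 for *Klf4*, -4.11 for *Tbx3* and -3.82 for *Tfcp2l1*, falls between those of *Trpm1* and *Ckb*. *Klf4* went from 247 CPM in 2i ESC to 7.91 in d1 EpiLC and *Tbx3* from 145 to 7.46, while *Nr0b1* was at 62.5 and 59.6 CPM and *Zfp57* at 81.3 and 46.7. In S+L ESC 7 of the 8 stayed within 2-fold of their 2i level, at 194 CPM for *Klf4*, 92.5 for *Tbx3* and 669 for *Zfp42* against 464 in 2i ESC. The exception was *Tfcp2l1*, at 54.0 CPM against 125. The 5 genes were chosen for their falls in serum, so nothing is read from this difference. Over the 8 libraries the genes most like *Trpm1* in log2(CPM + 1), among 9113 genes, were *Pglyrp1* (Pearson r 0.979), *Ckb* (0.937) and *Ephx2* (0.932), a lipid epoxide hydrolase gene at 53.9 CPM in 2i ESC, 3.64 in d1 EpiLC and 21.3 in S+L ESC. The genes most like *Pglyrp1* were *Trpm1*, *Gss* (0.912), which encodes glutathione synthetase, and *Ckb* (0.899). Those most like *Ckb* were *Tigd2* (0.962), *Tprn* (0.9503) and *Trpm1*, those most like *Pla1a* were *Cox4i1* (0.922), *Llgl2* (0.899) and *Glb1* (0.898), and those most like *Fst* were *Pnpt1* (0.959), *Ccdc12* (0.949) and *Sae1* (0.939). For *Fst* the r with the other 4 genes was between -0.139 and 0.0248. All these values share the same 8 libraries, among them the 2i and S+L libraries that chose the 5 genes. Likeness among the 5 genes is thus partly set by that choice, and these values are descriptions.

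Within 2i ESC the genes differed in how many cells carried them. A *Ckb* UMI was found in 227 of 227 cells, a *Pla1a* UMI in 66.1% of cells (exact Clopper-Pearson 95% interval 59.5 to 72.2), a *Trpm1* UMI in 58.1% (51.4 to 64.6), a *Pglyrp1* UMI in 36.6% (30.3 to 43.2) and an *Fst* UMI in 30.4% (24.5 to 36.8). Shares depend on depth, so cells were also thinned to 15374 UMIs each, which left 223 cells of 2i ESC and 293 of S+L ESC. After thinning, the share in 2i and S+L ESC was 100% and 63.8% for *Ckb*, 36.3% and 4.78% for *Pla1a*, 42.2% and 4.44% for *Trpm1*, 16.6% and 2.73% for *Pglyrp1*, and 15.7% and 0.341% for *Fst*. No cell type known to lack these genes was present in the ESC cultures, so the share that free RNA would give was not measured there.

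Over 2i cells *Trpm1* and *Ckb* varied more than counting noise alone would give. The variance over the mean of thinned UMIs (Fano factor), which is 1 for counting noise alone, was 2.02 for *Trpm1* and 2.30 for *Ckb*, 1.26 for *Pglyrp1*, 1.12 for *Pla1a* and 1.03 for *Fst*. The factor rises with the mean, which was 0.870 UMIs per thinned cell for *Trpm1* and 0.211 for *Pglyrp1*, so the genes are not ordered by it. A thinned 2i cell held up to 6 *Trpm1* UMIs and 57.8% of cells held 0, while *Fst* reached at most 2 UMIs in a cell. The 10 cells with most *Trpm1* UMIs held 21.5% of them before thinning. Of the 4 genes other than *Ckb*, 25.1% of thinned 2i cells had none, 45.3% had 1, 24.2% had 2, 4.48% had 3 and 0.897% had all 4, and in S+L ESC 88.1% had none. The correlations between pairs of the genes over these 223 cells lay between -0.109 and 0.143 for 10 pairs, in sparse counts.

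**Figure D3:**
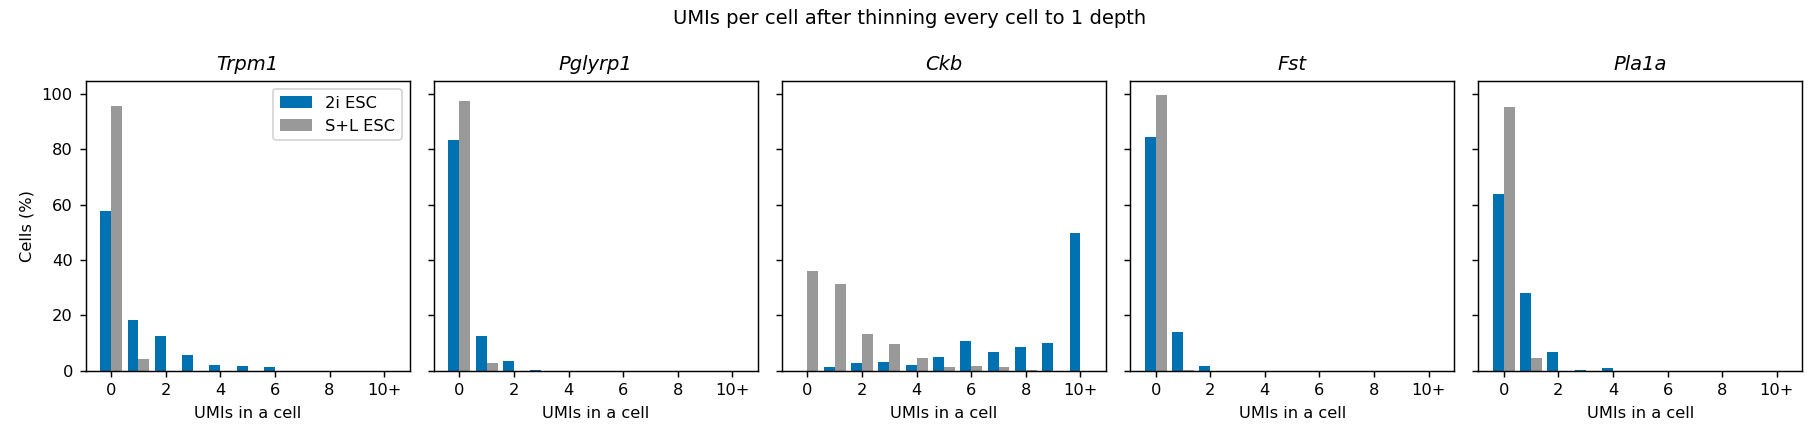
Percent of cells (vertical axis) with each number of UMIs of a gene (horizontal axis, 10 or more together) after thinning to 15374 UMIs per cell, in 223 cells of 2i ESC and 293 of S+L ESC. *Ckb* is in every 2i cell, 57.8% of 2i cells have 0 *Trpm1* UMIs, and S+L ESC lie at 0 or 1 UMI for the genes other than *Ckb*.

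The high level of *Fst* in EpiSC was spread unevenly over cells. An *Fst* UMI was found in 41.0% of EpiSC (36.0 to 46.2) and in 29.1% of thinned cells, with a Fano factor of 3.15 and up to 25 UMIs in a cell before thinning. In d2 EpiLC the thinned share was 19.8% with a Fano factor of 2.03, and in 2i ESC 15.7% with 1.03. The Fano factor of follistatin was thus near that of counting noise in 2i ESC and above it in d2 EpiLC and EpiSC. The factor rises with the mean, which was 0.175, 0.329 and 0.587 thinned UMIs per cell in 2i ESC, d2 EpiLC and EpiSC. In d1 and d3 EpiLC, with means of 0.184 and 0.165, it was 1.93 and 1.18. *Ckb* in EpiSC had a Fano factor of 2.59, with 56.5% of thinned cells positive.

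The EB were searched for a return of the genes. The cells that the study listed as PGCLC numbered 91 of 537 in d2 EB and 44 of 368 in d4 EB. They were chosen by clustering of these same cells, so levels in them against the other EB cells are a description. The k-means cluster of d4 cells with PGC markers (49 cells) was led by haemoglobin genes such as *Hba-a1* and *Hba-x* beside *Dppa5a*, *Sox2* and *Nanog*, and their part in the values was not tested.

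*Ckb* and *Pla1a* were above their d2 EpiLC level in PGCLC, more so on d4 than on d2. *Ckb* was at 46.6 CPM in d2 EpiLC, from which the EB were made, at 110 in d2 PGCLC, 34.1 in the other d2 cells, 234 in d4 PGCLC and 21.8 in the other d4 cells. The level in PGCLC was 3.23-fold that of the other cells on d2 (2.78 to 3.74) and 10.8-fold on d4 (8.86 to 13.1), and was 2.13-fold higher in d4 than in d2 PGCLC (1.79 to 2.52). In d4 PGCLC it was 0.362 of the 2i level (0.318 to 0.412). *Pla1a* was at 4.57 CPM in d2 EpiLC, 9.89 in d2 PGCLC, 1.37 in the other d2 cells, 34.1 in d4 PGCLC and 1.05 in the other d4 cells. It was 7.24-fold higher in PGCLC than in the other cells on d2 (3.80 to 14.3) and 32.4-fold on d4 (15.3 to 76.5). The d4 PGCLC, with 36 *Pla1a* UMIs in 44 cells, did not differ from 2i ESC beyond counting error (ratio 1.06, 0.730 to 1.51), and 47.7% of them had a *Pla1a* UMI against 2.16% of the other d4 cells.

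*Pglyrp1* and *Trpm1* were above their EpiLC level in d2 PGCLC, though below that of 2i ESC. In 2i ESC *Pglyrp1* was at 17.2 CPM and *Trpm1* at 54.6. The d2 PGCLC held 0.494 of the 2i level of *Pglyrp1* (0.310 to 0.758) and 0.0687 of that of *Trpm1* (0.0341 to 0.124). For *Pla1a* this ratio was 0.308 (0.203 to 0.452) and for *Ckb* 0.170 (0.152 to 0.191), so on d2 both were also below 2i ESC. *Pglyrp1* was at 0.448 CPM in d2 EpiLC, 8.52 in d2 PGCLC (25 UMIs), 1.37 in the other d2 cells (16 UMIs), 1.90 in d4 PGCLC (2 UMIs) and 0.351 in the other d4 cells (3 UMIs). It was 6.24-fold higher in d2 PGCLC than in the other d2 cells (3.20 to 12.5), and on d4 the ratio of 5.40 had an interval from 0.451 to 47.2. *Trpm1* was at 0 in d2 EpiLC, 3.75 CPM in d2 PGCLC (11 UMIs), 1.37 in the other d2 cells (16 UMIs) and 0 in both groups of d4 cells. The d2 PGCLC were 2.75-fold above the other d2 cells (1.15 to 6.30), but 1 PGCLC held 3 of the 11 UMIs. Without that cell the ratio was 2.03 (0.753 to 5.03), so the difference rests on few UMIs. With the highest cell of each group left out it was 2.31 (0.841 to 5.91). Of the 27 *Trpm1* UMIs in d2 EB most lay outside PGCLC. The count of 0 in the 44 d4 PGCLC places them at least 15.5-fold below 2i ESC by the exact interval.

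*Fst* was in d2 PGCLC and not detected in d4 PGCLC. It was at 22.1 CPM in d2 EpiLC, 21.8 in d2 PGCLC (64 UMIs), 8.11 in the other d2 cells (95 UMIs), 0 in d4 PGCLC and 3.39 in the other d4 cells (29 UMIs). The ratio of d2 PGCLC to d2 EpiLC was 0.990 (0.739 to 1.31), but 1 PGCLC held 19 of the 64 UMIs. Without that cell d2 PGCLC were at 15.4 CPM and the ratio was 0.700 (0.498 to 0.966), and with the highest cell of each group left out it was 0.747 (0.530 to 1.03). The ratio to the other d2 cells was 2.69, 1.90 without that cell (1.31 to 2.74) and 2.15 with the highest cell of each group left out (1.46 to 3.12). In d4 PGCLC the gene was, by the exact intervals, at least 6.06-fold lower than in d2 PGCLC and at least 3.17-fold lower than in 2i ESC. The 44 cells do not resolve a difference from the other d4 cells, since the interval of the ratio reached 1.10.

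**Figure D4:**
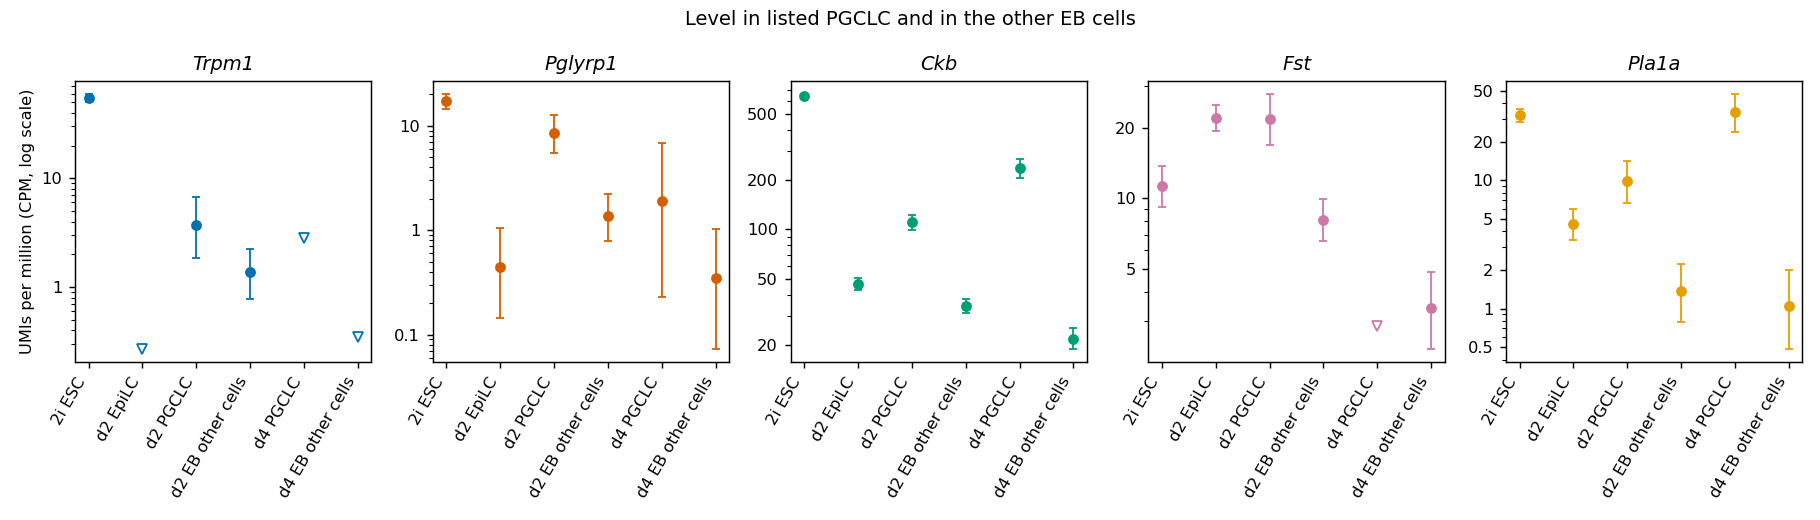
Level of each gene (CPM, log scale with a range of its own in each panel) in 2i ESC, d2 EpiLC, PGCLC and the other cells of d2 and d4 EB, with exact 95% Poisson intervals and open triangles at the limit of 3 UMIs where a group had 0. In d4 PGCLC *Pla1a* is at 34.1 CPM against 32.1 in 2i ESC and *Ckb* at 234 against 646, while *Fst* and *Trpm1* have 0 UMIs.

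By the 2-fold rule with at least 100 UMIs, 3 of the 5 genes could be compared between all PGCLC (135 cells) and d2 EpiLC, and 2 were higher, *Ckb* and *Pla1a*, beside 5.84% of all genes. In the pooled PGCLC *Ckb* was 3.07-fold (2.72 to 3.46) and *Pla1a* 3.57-fold (2.43 to 5.25) the d2 EpiLC level, and *Fst* was 0.728 of it (0.544 to 0.962). Between PGCLC and the other cells, 2 genes passed the minimum on d2, *Ckb* and *Fst*, and both were higher, beside 3.14% of all genes. Without the PGCLC that held 19 *Fst* UMIs the count was 1, *Ckb*. On d4 1 gene passed, *Ckb*, and was higher, beside 4.71%. *Pglyrp1*, *Trpm1* and *Pla1a* were too low for this minimum in part of these comparisons, and their ratios are those given above. A gene could pass the minimum through the group in which it was high, so the counts are not read further.

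The other cells of EB were not uniform. Clusters of cells with trophoblast markers such as *Rhox6*, *Esx1* and *Krt7* (extraembryonic ectoderm-like) had *Ckb* at 39.9 CPM on d2 (59 cells) and 64.6 on d4 (39 cells). The largest d4 cluster, 253 cells led by *Ptn*, *Pitx1* and *Gal*, was at 6.94 CPM of *Ckb* with a UMI in 13.4% of cells, and the endothelium-like cluster of 27 cells led by *Cldn5* and *Emcn* was at 15.0. *Ckb* had a Fano factor of 5.49 over all d4 EB cells, so the level of whole d4 EB is that of few high cells beside many low ones. *Fst* in the extraembryonic ectoderm-like cells of d4 EB was at 8.01 CPM, but 11 of its 15 UMIs there lay in 1 cell.

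In R1 cells all 5 genes were again present in d4 EB, and the dCD library differed from WT in opposite directions for different genes. *Trpm1* was at 1.55 CPM in WT (32 UMIs) and 3.28 in dCD (75 UMIs), a ratio of 2.11 (1.38 to 3.30). *Pglyrp1* was at 0.340 (7 UMIs) and 1.53 (35 UMIs), a ratio of 4.50 (1.97 to 12.0). *Ckb* was at 158 and 241 CPM, a ratio of 1.52 (1.46 to 1.59). These 3 genes, the ones with the largest falls from 2i ESC to d1 EpiLC in the other line, had intervals above 1. *Fst* was at 9.42 and 5.72 CPM, a ratio of 0.607 (0.483 to 0.762), and *Pla1a* at 4.37 and 1.88 CPM, a ratio of 0.430 (0.292 to 0.625). None of the 4 genes with at least 100 UMIs passed the 2-fold rule with 1 CPM added, neither lower, where 4.45% of 11842 genes lay, nor higher, where 6.00% lay, although the plain ratios of *Trpm1* and *Pla1a* exceed 2-fold. The log2 ratios were 0.74 for *Trpm1*, 0.92 for *Pglyrp1*, 0.60 for *Ckb*, -0.63 for *Fst* and -0.90 for *Pla1a*. With 1 library of each genotype, genotype, EB composition and library cannot be told apart, and less RNA per cell and fewer cells cannot be told apart in such sums.

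Within the R1 EB, cells with *Prdm1* or *Dppa3* UMIs and no *Klf4* UMI were set apart, 86 in WT and 97 in dCD. The cells chosen in this way differed in marker levels between the libraries. Of the PGC markers that the choice did not use, *Nanos3* was at 69.1 CPM in the WT cells and 22.9 in the dCD cells, *Dnd1* at 80.5 and 17.4, and *Tfap2c* at 215 and 147, while *Prdm14* was at 12.8 and 14.6. The naive markers went both ways. *Tbx3* was at 32.1 and 90.3 CPM and *Zfp57* at 9.97 and 27.8, while *Klf2* was at 370 and 226. *Zfp42*, *Esrrb*, *Tfcp2l1* and *Nr0b1* did not differ between the libraries beyond counting error. Levels in the chosen cells are those of cells chosen by the same genes. For cells chosen by these markers, the paper found most WT ones in its PGCLC cluster, but many dCD ones in clusters of undefined identity. The chosen cells are thus not taken as the same cell type in both genotypes, and their types were not tested here.

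*Ckb* was high in these cells in both libraries, at 549 CPM in WT and 499 in dCD (ratio 0.909, 0.820 to 1.01), but it was spread differently. A *Ckb* UMI was found in 93.0% of the WT cells and 76.3% of the dCD cells, with a median of 7 and 3 UMIs, and after thinning in 84.9% and 61.8%. The Fano factor was 2.39 in WT and 6.42 in dCD, where 1 cell held 73 UMIs, and without that cell the ratio was 0.833 (0.750 to 0.927). It was 4.25-fold the level of the other cells in WT (3.91 to 4.604) and 2.24-fold in dCD (2.06 to 2.42). *Pla1a* was at 19.2 CPM in the WT cells, with 27 UMIs, and at 0.695 in the dCD cells, with 1 UMI, a ratio of 0.0361 (0.000882 to 0.219). A *Pla1a* UMI was found in 26.7% of the WT cells and in 1.03% of the dCD cells. *Pla1a* was 5.86-fold higher in these WT cells than in the other WT cells (3.59 to 9.33), while in dCD 1 UMI stood against 42 in the other cells (ratio 0.355, 0.00877 to 2.09). *Fst* was low in them in both libraries, with 3 and 2 UMIs, and *Trpm1* (3 and 0 UMIs) and *Pglyrp1* (0 and 4 UMIs) were too low to compare.

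**Figure D5:**
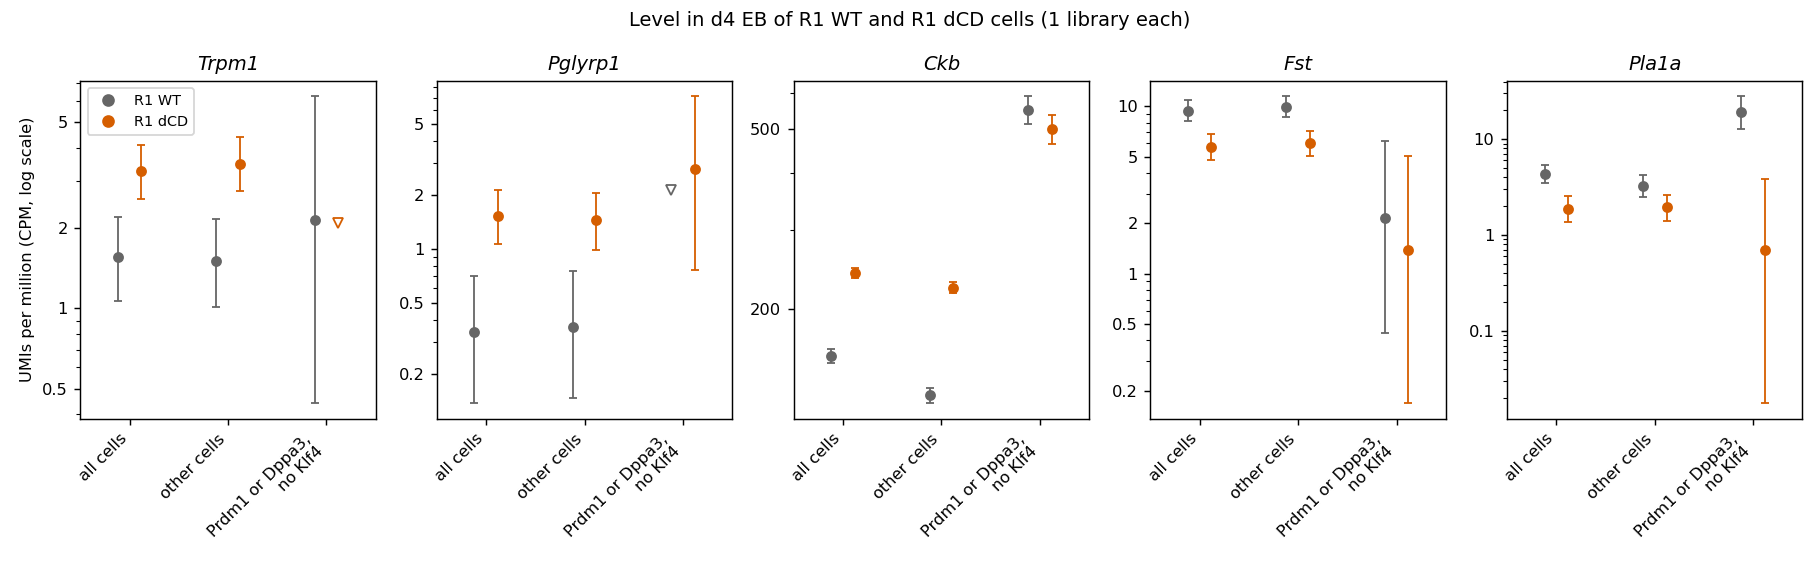
Level of each gene (CPM, log scale with a range of its own in each panel) in R1 WT and R1 dCD d4 EB, for all cells, for cells with *Prdm1* or *Dppa3* and no *Klf4*, and for the other cells, with exact 95% Poisson intervals and open triangles at the limit of 3 UMIs where a group had 0. Among the *Prdm1* or *Dppa3* cells *Pla1a* is at 19.2 CPM in WT and 0.695 in dCD, while *Ckb* is at 549 and 499.

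The *Trpm1* transcripts of R1 EB lay in few cells. A UMI was found in 25 of the WT cells and 38 of the dCD cells, and the 10 cells with most held 53.1% and 56% of the UMIs. In WT those 25 cells had *Zfp42* at 392 CPM against 99.6 in the cells without a *Trpm1* UMI, *Nanog* at 128 against 38.2 and *Klf4* at 115 against 42.4. In the dCD library *Zfp42* was at 649 against 204 CPM, *Nanog* at 337 against 111 and *Klf4* at 305 against 73.3. *Esrrb* was at 55.2 against 10.1 CPM in WT and 72.3 against 24.5 in dCD. *Tbx3* differed between the libraries, at 223 against 248 CPM in WT and 330 against 232 in dCD. In 2i ESC the 132 cells with a *Trpm1* UMI had no such excess, with *Zfp42* at 454 against 482 CPM, *Nanog* at 104 against 136, *Klf4* at 236 against 264, *Esrrb* at 60.9 against 59.8 and *Tbx3* at 146 against 144. In the R1 libraries the cells with and without a *Trpm1* UMI had a median of 15890 and 13177 UMIs per cell in WT and 13002 and 11723 in dCD. Cells were split here by a measured gene, so these values are a description.

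The relatives and pathway partners of the genes were read from lists written from general knowledge, over genes with at least 20 UMIs in 2i and S+L ESC together, where 2.56% of 11450 genes were at least 2-fold lower in S+L ESC and 9.31% at least 2-fold higher. The 5 genes sit in these lists and were lower by the rule that chose them, so the counts leave them out. Of the TRPM channels 2 others had enough UMIs, and 0 were lower. *Trpm4* was at 2.17 CPM in 2i and 3.86 in S+L ESC, and *Trpm7*, a channel with a kinase domain, was at 17.4 CPM in both media. *Pglyrp1* was the only 1 of 4 peptidoglycan recognition genes with enough UMIs. In the creatine system 1 of 3 other genes was lower, the mitochondrial kinase gene *Ckmt1* (13.2 to 5.44 CPM), while the methyltransferase *Gamt*, which makes creatine, went from 6.97 to 3.17 CPM, and the creatine transporter *Slc6a8* from 45.9 to 29.7. Both were short of the 2-fold rule, *Gamt* because of the 1 CPM added (log2 ratio -0.93). Of 3 other lipase genes 0 were lower, and hepatic lipase *Lipc* was at 4.34 CPM in 2i and 2.28 in S+L ESC.

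Among 18 genes of follistatin, activin and BMP signalling other than *Fst*, 2 were lower and 4 higher in S+L ESC. Lower were *Lefty2*, a Nodal antagonist (log2 ratio -1.28), and *Id3* (-1.26), and higher were *Id1* (2.65), *Id2* (2.15), the activin subunit gene *Inhbb* (2.52) and the Nodal co-receptor gene *Tdgf1* (1.31). *Inhbb* was at 2.63 CPM in 2i and 19.8 in S+L ESC. The *Id* genes, known BMP targets, also differed in direction. *Lefty1*, a Nodal target and antagonist, was at 38.8 CPM in 2i ESC and 29.1 in S+L ESC. It was at 479 in d2 EpiLC and 698 in EpiSC, the libraries where *Fst* was also highest. Other genes of the list went both ways from 2i ESC to EpiSC. *Lefty2* went from 26.7 to 18.2 CPM, *Tdgf1* from 393 to 170 and *Gdf3* from 72.4 to 0.705, while *Acvr2b* went from 17.4 to 71.8. *Nodal* was at 20.3 CPM in 2i ESC, 58.1 in d2 EpiLC and 26.2 in EpiSC.

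Targets of ERK signalling, which PD0325901 blocks, and of WNT signalling, which CHIR99021 activates, were counted apart. Of 15 ERK targets 0 were lower and 8 higher in S+L ESC, led by *Etv4* (3.15), *Spry4* (2.73) and *Fos* (1.64), with a median log2 ratio of 1.06. Of 9 WNT targets 4 were lower, *Sp5* (-1.82), *Notum* (-1.13), *Cdx1* (-1.12) and *Axin2* (-1.08), and 2 were higher, *Ccnd2* (3.39) and *Lef1* (2.56). In d1 EpiLC *Sp5* was at 0.455 CPM and *Cdx1* at 0.182, against 11.6 and 7.19 in 2i ESC, while *Notum* was still at 19.8 against 19.0 and at 0.359 in d2 EpiLC. In EpiSC *Sp5* was at 58.1 CPM, while *Notum* was at 1.25, *Cdx1* at 0 and *Axin2* at 10.6, against 13.5 for *Axin2* in 2i ESC. *Trpm1* and *Pglyrp1* were at 0 and 0.392 CPM in EpiSC. Whether any of the 5 genes responded to either inhibitor was not tested. No culture had 1 inhibitor alone, and other parts of the media differed as well.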

How the data were processed

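For the E14Tg2a libraries (v2 kit) the authors deposited UMI counts made with Cell Ranger 2.1.0 on mm10, aggregated after bringing all libraries to a common number of mapped reads per cell, which lowers the depth of the deepest ones. For R1 (v3 kit) they deposited UMI counts of cells that passed a minimum of detected genes, and the counting tool is not given in the sources used here. E14Tg2a cells were tied to libraries by barcode suffix, and PGCLC identified, through the supplement. Symbols came from a GRCm38 annotation, for 27722 of 27998 identifiers. The 5 genes, the lists and the motifs were chosen with earlier results of these data known.

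Log2 ratios used 1 CPM added, genes with at least 100 UMIs over both groups (20 for the lists) and a 2-fold rule. A count of 0 was drawn in figures at a limit of 3 UMIs, and folds against it are the lower limit of the exact interval. Cells were thinned to 15374 UMIs (E14Tg2a) or 6831 (R1), which is percentile 10 of the library with least depth, leaving out 4 to 37 cells per E14Tg2a library and 50 and 170 of R1. EB cells were clustered by k-means (3 groups on d2, 4 on d4) over 20 principal components of 2000 variable genes and named from fixed markers. The R1 cells chosen by marker had at least 2 *Prdm1* UMIs or 1 *Dppa3* UMI and no *Klf4* UMI. Scrublet in scanpy 1.11.5 called 0.589% to 6.23% of cells per library doublets. They stayed in the main values, and an alternative dropped them. Other genes named are list genes with the largest ratios, markers, the 3 genes most alike over 8 libraries among those above 10 CPM in some library, and the gene just outside the choice. Leaving out cells with shared barcodes, leaving out the cell with most UMIs of a gene, and the recounts outside the falls from 2i ESC were chosen after seeing the data. Python 3.11.15 was used with scikit-learn 1.9.0, pandas 2.3.3, scipy 1.17.1 and numpy 2.4.6, and the ratios were tested on simulated data.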

Additional observations from a re-analysis of the deposited data

Results flagged for a closer look

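For 4 genes a contrast had opposite directions in 2 libraries. These differences between libraries were not tested, since each group is 1 library. *Fst* was higher in PGCLC than in the other EB cells on d2 (log2 ratio with 1 CPM added, 1.33) and lower on d4 (-2.13), where PGCLC had 0 UMIs and the interval of the d4 ratio included 1. In d2 PGCLC 19 of the 64 *Fst* UMIs lay in 1 cell, and without it the d2 value was 0.85. *Pla1a* was higher in R1 cells with *Prdm1* or *Dppa3* and without *Klf4* than in the other cells in WT (2.24) and lower in dCD (-0.80), where it had 1 UMI in 97 cells and the interval of the dCD ratio included 1. *Trpm1* was at 0.32 in WT and -2.17 in dCD on the same contrast, with 3 and 0 UMIs in those cells. *Pglyrp1* was at -0.45 in WT and 0.63 in dCD, with 0 and 4 UMIs. Groups of 4 or more libraries, in which a single library could be set apart, do not exist here.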

How the results depend on the processing

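No paired analysis was possible because each group holds 1 library, and for the same reason no library could be left out. Of 799 recomputed values 0 were labelled as reversed. Only log2 ratios of at least 1 in size, and ratios of CPM whose interval left out 1, could receive that label. It therefore says nothing of counts, of shares or of smaller ratios such as those of dCD against WT. Of 540 values of single genes or shares 436 moved by less than their counting interval. The number of the 5 genes lower than in 2i ESC in each library, and higher in all PGCLC than in d2 EpiLC, stayed within 1.5 times its value with a 1.5-fold or 3-fold rule, another CPM added or scaling, and without doublets or shared barcodes. Other counts moved, in recounts chosen after seeing the data. With a 1.5-fold rule 1 gene was higher in d2 EpiLC than in 2i ESC (0 at 2-fold), and 2 were higher and 2 lower in dCD than in WT (0 and 0). With 0.1 CPM added 1 was higher and 1 lower in dCD. In d2 PGCLC against the other d2 cells 1 gene was higher with a 3-fold rule or without the cell of most UMIs, and 2 at 2-fold. The size of log2 ratios depended on the CPM added, which bears most on genes near 0. With 5 CPM the median over the 5 genes against 2i ESC was -1.89, -2.03 and -2.04 in EpiLC on d1, d2 and d3, -2.64 in EpiSC, -2.20 and -2.01 in EB on d2 and d4, and -2.13 in S+L ESC. It was 1.09 for d2 PGCLC and 0.99 for all PGCLC against the other EB cells, 1.11 for PGCLC against d2 EpiLC and 0.29 for dCD against WT. With 0.1 CPM it was -4.05 in d3 EpiLC, -4.95 in EpiSC and -3.75 in S+L ESC. As a mean over cells it was 0.54 for dCD against WT. With a minimum of 20 UMIs, which adds low genes, the genes at least 2-fold lower than in 2i ESC numbered 781 (483 at 100 UMIs), 776 (493) and 938 (612) for EpiLC on d1, d2 and d3, 920 (569) for EpiSC and 1007 (667) for d2 EB, and those higher 1875 in d2 EpiLC (1029) and 2783 in EpiSC (1798). Those higher in PGCLC numbered 986 against d2 EpiLC (464), 637 against the other d2 cells (254) and 861 against the other d4 cells (353). With 5 CPM added, 647 genes were higher in d2 EpiLC, 121 were lower in S+L ESC (209), 309 were higher (711) and 325 lower (527) in dCD, and of the lists 4 ERK targets were higher and 1 WNT target and, of the creatine genes, only *Ckb* (1 gene) lower in S+L ESC. Thinned shares in 2i ESC were 15.7% for *Fst*, 16.6% for *Pglyrp1*, 36.3% for *Pla1a* and 42.2% for *Trpm1*. Depth limits *Trpm1*, *Pglyrp1* and *Fst* in d4 PGCLC, where 44 cells gave 0 to 2 UMIs.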
